A study of Mus musculus with 8 samples.

Results

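Of 32912 peak summits of V5-tagged ZGLP1 on the mouse autosomes and X, 2893 lay in sequence between protein-coding genes, over 10 kb and at most 50 kb from the nearest gene start or end. They were chosen by position alone, from RefSeq gene ends of GRCm38 (mm10), and made up 8.79% of the summits (exact 95% binomial interval 8.49 to 9.10). The cells carried a V5-tagged Zglp1 that doxycycline (Dox) switches on, so the summits are those of an overexpressed protein, and mm10 summits were deposited as a single list. ChIP libraries came from primordial germ cell-like cells (PGCLCs), derived in culture from embryonic stem cells (ESCs), on culture day 7 or 8 with Dox alone or with Dox and retinoic acid (RA) from day 3, and from ESCs after 24 h of Dox and RA. Each group had 1 library, from cells of C57BL/6 x DBA2 background, and the labels name the ESC lines H18 BVSC and BDF1-2-1 BVSC without tying either to a library. PGCLCs were sorted for the reporters SC and mCherry, and ESCs for mCherry, with 3 inputs beside the 5 ChIP libraries. Because the summits carry neither a library nor a height, the conditions cannot be set against each other, the depth behind a summit is unknown, and no test between samples was possible. The shares below are descriptions with intervals for counting error alone, which treat summits as independent although many lie close together.

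ZGLP1 is a nuclear protein with GATA-like zinc fingers that is known for its role in oogenic entry of female germ cells. Sequence many kilobases from coding genes holds enhancers, which act on promoters over a distance, and also genes that make no protein: long noncoding RNAs (lncRNAs), microRNAs, and transfer RNA (tRNA) genes, which RNA polymerase III transcribes from a promoter inside the gene. A distance to the nearest gene does not say which gene a site acts on.

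The sequence under most of these summits was not used here, but 72 of them fell in RefSeq promoter windows of 74 lncRNA genes, each window running from 250 bases before to 50 bases after the gene start (GRCm38.p6). The windows of 4 such genes are shown because their summits lie in the densest groups of summits or at lncRNAs with established names; they were chosen after their values were seen. Malat1 is an abundant nuclear lncRNA, Mirc35hg is a microRNA host gene, Snhg11 is a host gene of a small nucleolar RNA, and Rab10os lies opposite Rab10. Each runs 5′ to 3′ along the strand of the gene, and capitals mark the 21 bases centred on the summit:
Malat1 (chr19:5802623-5802922, minus strand): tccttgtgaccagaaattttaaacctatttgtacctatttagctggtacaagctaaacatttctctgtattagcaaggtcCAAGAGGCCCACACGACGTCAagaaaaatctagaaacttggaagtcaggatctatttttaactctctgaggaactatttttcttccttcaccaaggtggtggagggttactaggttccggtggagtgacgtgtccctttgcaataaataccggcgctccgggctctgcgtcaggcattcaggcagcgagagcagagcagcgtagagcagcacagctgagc
Mirc35hg (chr6:30174076-30174375, minus strand): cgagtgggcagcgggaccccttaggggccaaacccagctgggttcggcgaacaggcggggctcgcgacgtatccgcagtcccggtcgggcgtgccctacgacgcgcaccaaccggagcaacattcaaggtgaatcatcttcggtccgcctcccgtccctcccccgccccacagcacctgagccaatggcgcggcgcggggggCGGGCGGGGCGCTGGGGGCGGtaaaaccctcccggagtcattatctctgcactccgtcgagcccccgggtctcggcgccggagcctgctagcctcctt
Rab10os (chr12:3235541-3235840, plus strand): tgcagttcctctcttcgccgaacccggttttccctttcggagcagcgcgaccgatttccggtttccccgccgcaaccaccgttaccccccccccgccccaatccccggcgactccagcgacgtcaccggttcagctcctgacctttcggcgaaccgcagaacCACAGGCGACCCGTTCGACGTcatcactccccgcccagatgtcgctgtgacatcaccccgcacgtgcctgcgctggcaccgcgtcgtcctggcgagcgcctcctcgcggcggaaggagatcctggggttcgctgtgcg
Snhg11 (chr2:158375463-158375762, plus strand): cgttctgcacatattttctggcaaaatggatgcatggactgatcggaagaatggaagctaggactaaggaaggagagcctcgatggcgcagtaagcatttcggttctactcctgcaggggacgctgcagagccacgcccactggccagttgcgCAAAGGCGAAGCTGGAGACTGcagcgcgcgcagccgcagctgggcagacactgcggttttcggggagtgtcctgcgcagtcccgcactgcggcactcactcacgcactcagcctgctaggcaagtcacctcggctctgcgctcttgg
The summit lay 160 bases before the start of Malat1, 38 before that of Mirc35hg, 78 before that of Rab10os and 87 before that of Snhg11. Over all 74 pairs of a gene and a summit the median offset was -70.5 bases, with a range from -247 to 41. In 62 pairs the summit lay before the start. These values are set in part by the window, which holds 250 bases before the start and 50 after it. Most summits spread evenly over such windows would also lie before the start, so no preference for that side can be read from them.

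The 3 windows below had the letters GATA, the core bound by GATA factors, closest to the summit. Capitals mark GATA or its reverse complement TATC:
Gm32552 (chr10:117866671-117866970, minus strand): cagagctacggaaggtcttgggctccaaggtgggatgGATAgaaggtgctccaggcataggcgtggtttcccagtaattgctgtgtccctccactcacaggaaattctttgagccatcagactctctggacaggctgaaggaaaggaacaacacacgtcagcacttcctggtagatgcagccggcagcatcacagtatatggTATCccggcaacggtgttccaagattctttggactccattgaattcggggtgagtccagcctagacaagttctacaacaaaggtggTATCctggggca
1600015H23Rik (chr11:109343675-109343974, plus strand): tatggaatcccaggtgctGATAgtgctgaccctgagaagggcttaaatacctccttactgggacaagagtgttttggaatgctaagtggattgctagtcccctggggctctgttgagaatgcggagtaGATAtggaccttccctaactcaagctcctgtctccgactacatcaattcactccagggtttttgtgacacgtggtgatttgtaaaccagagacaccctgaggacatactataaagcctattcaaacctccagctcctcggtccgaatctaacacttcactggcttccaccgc
Gm36356 (chr7:135485671-135485970, plus strand): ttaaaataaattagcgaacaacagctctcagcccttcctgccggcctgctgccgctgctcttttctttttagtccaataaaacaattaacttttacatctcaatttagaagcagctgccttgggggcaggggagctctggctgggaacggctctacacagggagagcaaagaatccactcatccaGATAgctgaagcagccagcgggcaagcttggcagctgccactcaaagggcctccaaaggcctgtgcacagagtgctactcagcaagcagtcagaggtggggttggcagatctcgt
The centre of the nearest match lay 2.5 bases from the summit in Gm32552, 9.5 bases in 1600015H23Rik and 11.5 bases in Gm36356. Of the 74 pairs, 5 had such a match within 25 bases of the summit. How often a match falls that close to other positions was not counted, so no excess can be read from this number.

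Windows with a summit were richer in G and C than those without, and fewer of them held GATA. Their median GC content was 56.0% (quartiles 52.0 and 59.9), against 47.7% (43.3 and 51.3) in the 2101 lncRNA windows of the same intergenic class without a summit, and their median number of CpG pairs was 11 against 3. GATA on either strand occurred in 35 of 74 windows with a summit (47.3%, exact 95% interval 35.6 to 59.3), against 70.5% (68.5 to 72.4) of those without. Among windows of 55 to 65% GC the shares were 50.0% of 34 and 49.5% of 192, and among those of 45 to 55% GC they were 51.7% of 29 and 66.8% of 1207. The GC box core GGGCGG was present in 44.6% (33.0 to 56.6) of windows with a summit and 9.33% (8.12 to 10.7) of those without, and the E-box CACGTG in 16.2% (8.67 to 26.6) and 5.05% (4.15 to 6.07). The GC box and the E-box were not compared within classes of GC content, so whether composition alone gives these differences was not tested. The CCAAT box was present in 31.1% and 36.3%, with overlapping intervals. Both strands were searched, and CACGTG reads the same on each. The same contrast in composition was present at protein-coding genes, where 4966 windows with a summit had a median GC content of 63.0% and 12308 without one had 53.0%.

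The class covered 377 Mb, or 14.7% of the annotated span, and held 7.67 summits per Mb. Within 1 kb of a gene start or end there were 178 per Mb, from 1 to 10 kb 19.9 per Mb, and in intergenic sequence over 50 kb away 2.01 per Mb. Sequence inside genes but over 10 kb from their ends held 6.80 per Mb. The intergenic class from 10 to 50 kb thus lay below the 12.8 per Mb of the whole span and close to the deep gene bodies.

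Density fell with distance across the class, though not at each step. It was 9.46 per Mb from 10 to 15 kb (747 summits), 8.18 from 15 to 20 kb, 7.53 from 20 to 25 kb and 8.14 from 25 to 30 kb. It was 7.27 from 30 to 35 kb, 6.78 from 35 to 40 kb, 5.15 from 40 to 45 kb and 5.54 from 45 to 50 kb (160 summits). The flanking bins were 11.4 per Mb from 5 to 10 kb and 4.35 from 50 to 75 kb, so the class limits fall on a slope and not at a break. The median distance was 22151 bases (quartiles 14762 and 32183), against 24298 for all bases of the class. Just inside the limits were summits 10006 bases from Slc18a1, 10007 from Tor1b, 49974 from Tmem132d and 49994 from Cwc27. Just outside lay summits 9998 bases from Fosb, 10000 from Gbp2, 50014 from Disc1 and 50031 from Tmco5.

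**Figure D1:**
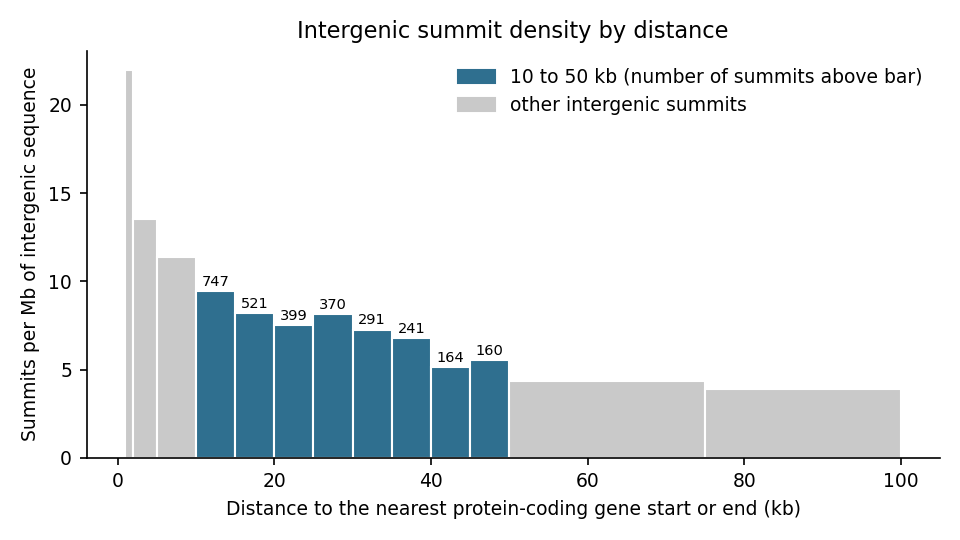
Summits per Mb of intergenic sequence (y axis) against distance in kb to the nearest protein-coding gene start or end (x axis), with the class from 10 to 50 kb in blue, its number of summits above each bar, and other distances in grey. Density declines from 9.46 per Mb at 10 to 15 kb to 5.54 per Mb at 45 to 50 kb, between 11.4 and 4.35 per Mb on either side.

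The summits were spread over 1747 of the 8910 intergenic gaps that hold sequence of the class (19.6%). Of these, 1129 gaps held 1 summit, 347 held 2, 149 held 3, 61 held 4, 27 held 5 and 34 held 6 or more. Short gaps were the denser ones. Gaps of 20 to 40 kb held 13.1 per Mb of class sequence, those of 60 to 100 kb 9.26, those of 200 to 500 kb 4.26 and those over 500 kb 3.31. Densities by the direction of the flanking genes, known for part of the gaps, lay closer together. Gaps between 2 gene starts held 8.11 per Mb, gaps between genes in tandem 7.17 and gaps between 2 gene ends 7.31. Summits nearest to a gene start (1243) had 7.63 per Mb, and those nearest to a gene end (976) had 7.27.

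Summits of the class lay more densely beside genes that had a ZGLP1 summit at their own boundary. The nearest gene had a summit within 1 kb of its start or end for 2021 of 2893 (69.9%, 68.1 to 71.5), while such genes bordered 47.4% of the class sequence and made up 53.8% of all protein-coding genes. The densities were 11.3 per Mb beside these genes and 4.39 per Mb beside the others. The difference was present in each class of gap length: 21.0 against 7.35 per Mb in gaps of 20 to 40 kb, 10.7 against 4.41 in gaps of 100 to 200 kb, and 4.65 against 2.07 in gaps over 500 kb. Counted by gene, 21.8% (20.7 to 22.8) of the 6037 genes with class sequence and a boundary summit had a summit of the class, against 9.71% (9.0 to 10.4) of the 6562 without. Both measures come from the same list of summits.

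A total of 1952 of 21521 protein-coding genes (9.07%) were nearest to at least 1 summit of the class, or 15.5% of the 12599 that border such sequence. Most had 1 (1373 genes) or 2 (360 genes), and 35 had 5 or more. Among the genes with most, Sik1, a salt-inducible kinase gene, had 8 from 21656 to 43309 bases away. Zfp184, a zinc finger gene at the edge of the histone cluster on chromosome 13, also had 8, from 11064 to 48030 bases. Those with 7 were Cxxc5, Nrf1, which encodes a transcription factor of nuclear-encoded mitochondrial genes, Socs3, an inhibitor of cytokine signalling, Trim27 and Zfp64. Those with 6 were 1700001O22Rik, Bahcc1, Calcoco1, Dmrt1, Hjv, Irf2bpl and Ptma, and also Sec14l1 and Tex44, which came after the 15 genes of the naming rule in alphabetical order. Of the genes with 6 or more named here, Hjv and Tex44 had no summit within 1 kb of a boundary, and the others did. All summits of the class nearest to Zfp184 and Hjv, and most of those nearest to Trim27, lay within 1 kb of a tRNA gene.

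Genes of the primordial germ cell and naive pluripotency lists bordered more of these summits than protein-coding genes in general. In the primordial germ cell list 15 of 32 genes (46.9%, 29.1 to 65.3) were nearest to at least 1, with 37 summits and 33.2 per Mb (exact Poisson interval 23.4 to 45.8), against 9.07% and 7.67 per Mb for all protein-coding genes. In the naive pluripotency list it was 13 of 32 genes (40.6%, 23.7 to 59.4), with 33 summits and 26.3 per Mb (18.1 to 36.9). Among genes that border class sequence the shares were 50.0% of 30 and 43.3% of 30, against 15.5% of all such genes. The lists are not independent, since 14 genes are in both and 8 of these bordered 21 summits of the class. Over either list there were 49 summits beside 20 of 50 genes. Among genes with a boundary summit alone, the densities were 36.7 per Mb for the primordial germ cell list and 30.5 for naive pluripotency, against 11.3 for all such genes. On the same basis the housekeeping list had 37.0 per Mb, from 5 summits in 0.135 Mb. The meiotic prophase list had 28.4 per Mb, from 7 summits in 0.246 Mb, of which 6 were nearest to Dmrt1. The BMP response list had 22.7 per Mb, from 20 summits in 0.880 Mb.

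Sox2, a pluripotency transcription factor, had the most of these summits. They lay at 10613, 11699, 12926, 15629 and 16252 bases, 1 on its start side and 4 on its end side, and all 5 inside the lncRNA gene Sox2ot (chromosome 3, 34560381 to 34677993), whose span contains Sox2. Prdm1, the repressor that begins germ cell specification, had 4, of which a pair lay 11095 and 12383 bases on the start side and a pair 26996 and 27998 bases on the end side. Prdm14, a second specification factor, also had 4, at 28501, 34197, 38625 and 41885 bases. Tfap2c, the third factor of that group, had 3, at 23226, 25006 and 28625 bases. These 3 specification factors therefore had 11 of the 37 summits of their list between them.

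Dppa3, an early germ cell and maternal factor, and Nanog, a pluripotency factor, are neighbours on chromosome 6, and 5 summits lay between them. Those nearest to Dppa3 were at 122659792, 122662836 and 122667463, and those nearest to Nanog at 122669560 and 122690460, on its start side. Klf4 had 3, at 12245, 45901 and 46586 bases on its end side, and Esrrb had 2, at 16766 and 26395 bases. Nanos3, an RNA-binding protein gene needed for germ cell survival, had 3 at 10182, 15731 and 16296 bases, and Kit, the receptor gene for stem cell factor, had 2 at 36353 and 37139 bases. The other genes of the 2 lists, named to complete them, were Sall4, Itga6, Tcl1 and Tbx3 with 2 each, Klf5 and Otx2 with 3 each, and Elf3, Mycn, T and Tet2 with 1 each.

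Genes of the bone morphogenetic protein (BMP) response, the signal that induces germ cells, bordered 28 summits. They lay beside 12 of 33 genes (36.4%, 20.4 to 54.9), at 21.4 per Mb (14.2 to 30.9). Among genes that border class sequence the share was 40.0% of 30, against 15.5% of all such genes. The inhibitory SMAD genes Smad6 and Smad7 had 4 each, those of Smad6 at 20984, 23536, 26032 and 28126 bases. Dlx3, a homeobox gene, had 3 at 11489, 14262 and 14805 bases. Of the inhibitors of differentiation, direct targets of the pathway, Id2 had 2 at 12915 and 18713 bases, Id3 had 2 at 33095 and 36799 bases, and Id1 had none in the 3.79 kb of class sequence it borders. Msx1, another target, had none in 70.3 kb. Among ligands and inhibitors, Bmp4 had 3, and Bmp7 and the antagonist gene Chrd had 2 each.

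Lists of signalling, developmental, early response and RA genes all had shares above 9.07%, with density intervals that included 7.67 per Mb in each. Among genes that border class sequence the shares were 38.9%, 41.2%, 40.7% and 33.3% in that order, against 15.5% of all such genes. For TGF-beta, WNT and Notch signalling the counts were 14 of 43 genes (32.6%, 19 to 48.5) and 12.9 per Mb (7.63 to 20.3), led by Rbpj, the DNA-binding protein of Notch signalling, with 3. Axin2, an inhibitor of WNT signalling, and Hes1, a Notch target, had 2 each. For developmental regulators under Polycomb repression in stem cells they were 28 of 69 genes (40.6%, 28.9 to 53.1), yet 10.6 per Mb (7.44 to 14.6) in the 3.50 Mb of class sequence they border. Pax5, a B cell and midbrain regulator, had 3, and Lhx2 and Olig2 had 2 each. For immediate early genes they were 11 of 31 (35.5%, 19.2 to 54.6) and 13.1 per Mb (7.31 to 21.5), with 2 each at Fos, Btg2 and Spry4. The RA response list had 6 of 32 (18.8%, 7.21 to 36.4) and 12.2 per Mb (5.83 to 22.3). Its genes included Aldh1a2, which makes RA, Rxra, a receptor gene, and Crabp1, an RA-binding protein gene, with 2 each, and Hoxb1 and Nrip1, with 1 each. Cyp26a1, the RA-degrading enzyme gene, had none in 40.0 kb, and neither had the receptor gene Rarb in 40.0 kb.

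Shares in the meiotic, oocyte and late germ cell lists were near the 9.07% of all protein-coding genes, while their densities were above 7.67 per Mb, with intervals that included that value for the oocyte and late germ cell lists. Among genes that border class sequence the shares were 20.0% of 20, 15.8% of 19 and 16.7% of 18 in that order, against 15.5% of all such genes. In the meiotic prophase list 4 of 50 genes (8.0%, 2.22 to 19.2) were nearest to 1, with 9 summits in 0.459 Mb, or 19.6 per Mb (8.97 to 37.2). Dmrt1, a transcription factor gene of germ cells and supporting cells that stands in the gonadal list too, had 6 of these 9, and Hfm1, Hsf2bp and 4930447C04Rik had 1 each. Stra8 and Rec8, of meiotic entry and cohesion, and Sycp3, of the synaptonemal complex, border no sequence of the class. In the oocyte list 3 of 35 genes (8.57%, 1.80 to 23.1) had a summit, at 12.1 per Mb (4.45 to 26.4). They were Dppa3, Kit and Zp2, a zona pellucida gene. Among the oocyte transcription factors, Figla, Nobox and Lhx8 had none, Lhx8 in 47.3 kb of class sequence, and Sohlh1 borders no such sequence. The late germ cell list had 3 of 29 (10.3%, 2.19 to 27.4), at 17.1 per Mb (6.28 to 37.3). These were Nanos3, Piwil1 with 2 and Fkbp6 with 1. There was none beside Dazl in 74.4 kb, and Ddx4 borders no class sequence.

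The Zglp1 gene itself had none in the 1.68 kb of class sequence it borders. In the list of GATA factors and partners 1 of 25 genes (4.0%, 0.101 to 20.4) had any, Mta3, a chromatin remodelling subunit gene, with 3. Gata2 had none in 34.3 kb, Gata4 none in 40.0 kb and Gata6 none in 80.0 kb. Lefty1, a Nodal inhibitor gene, had none in 3.47 kb. The gonadal supporting cell list had 5 of 29 genes (17.2%, 5.85 to 35.8) and 9.39 per Mb (4.50 to 17.3), with Dmrt1 first and 1 summit each at Six4, Nr2f2, Sox9 and Wt1. Housekeeping genes had 4 of 32 (interval 3.51 to 29.0%), with 3 summits at Actb and 1 each at Polr2a, Psmb2 and Ywhaz, and 27.0 per Mb in the 0.222 Mb they border (9.92 to 58.8). That wide interval overlaps those of the primordial germ cell and naive pluripotency lists. Among genes that border class sequence the shares were 6.67% of 15 in the GATA list, 20.8% of 24 in the gonadal list and 30.8% of 13 housekeeping genes. For all such genes the share was 15.5%.

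Gene families taken by symbol, after earlier results were known, lay at opposite ends. Olfactory receptor genes (Olfr) were nearest to a summit in 14 of 1109 cases (1.26%, 0.692 to 2.11), at 1.76 per Mb (1.01 to 2.86). Vomeronasal receptor genes (Vmn) were so in 12 of 352 cases (3.41%, 1.77 to 5.88), at 2.04 per Mb (1.23 to 3.18). Zinc finger genes named Zfp were so in 50 of 397 cases (12.6%, 9.49 to 16.3), at 13.3 per Mb (10.6 to 16.5). Among genes that border class sequence the shares were 1.85%, 3.55% and 21.2% in that order, against 15.5% of all such genes. The intervals of both receptor families lay below the value for all genes, and that of the Zfp genes above it in density.

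**Figure D2:**
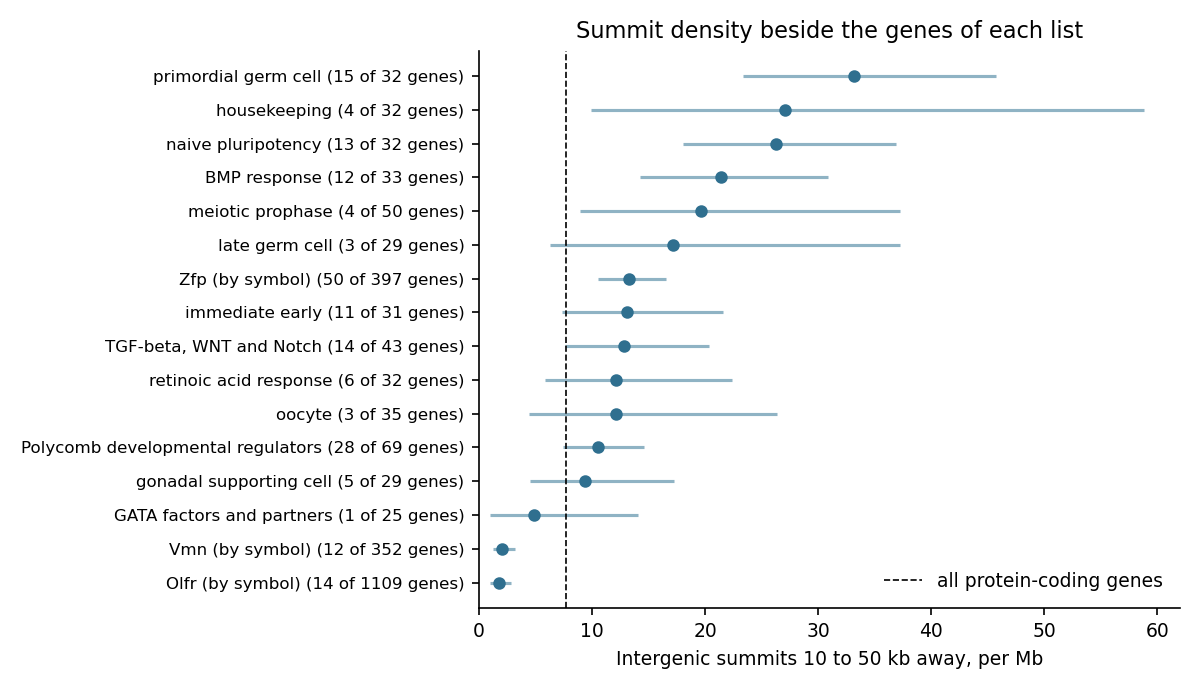
Summits of the class per Mb of class sequence beside the genes of each list (x axis), with points for the density, lines for the exact 95% Poisson interval of the count, and the number of genes nearest to a summit in brackets. The primordial germ cell list has the highest density, 33.2 per Mb, and the Olfr and Vmn families lie at 1.76 and 2.04 per Mb, on either side of the dashed line at 7.67 per Mb for all protein-coding genes.

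Genes that make no protein lay under or beside more of these summits than their share of the sequence. Of the 2893 summits, 628 (21.7%, 20.2 to 23.3) lay inside a lncRNA gene, which covers 13.1% of the class. Annotated pseudogenes held 30 summits (1.04%, 0.701 to 1.48) and cover 2.40% of it. Over all genes that are not protein-coding the share within 1 kb was 31.4%, against 19.3% of bases. The remaining 1985 summits (68.6%) lay over 1 kb from every annotated gene, at 6.52 per Mb. Of all 32912 summits, 17.8% lay within 1 kb of a gene that is not protein-coding, against 12.0% of the annotated span. Inside lncRNA genes lay 10.3% of all summits, against 8.56% of the span. A share above that of the sequence was therefore not particular to this class.

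The lncRNA with most summits was Gm15411, with 6 between 148957363 and 149014713 on chromosome 5. Those with 5 were 4930557F10Rik, Gm30234, Gm32525, Malat1, Sox2ot and Trp53cor1, a lncRNA near Cdkn1a known as a p53 target. Those with 4 were A930004D18Rik, Gm13067 and Gm33085, of which A930004D18Rik and Gm33085 overlap beside Skida1 and share all 4. In Malat1, which spans only 6983 bases, the 5 summits ran from 5796763 to 5801423, whereas in Sox2ot they ran over part of its 117613 bases. Most summits inside 4930557F10Rik and Gm32525, both on chromosome 13, also lay within 1 kb of a tRNA gene.

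At lncRNA starts the density rose towards the start. Within 1 kb of one lay 217 summits (7.50%, 6.57 to 8.52), against 1.23% of class bases. Density was 121 per Mb within 100 bases of a start, 75.4 from 100 to 250 bases, 42.9 from 250 to 500 bases, 23.3 from 500 to 1000 bases and 12.4 from 5000 to 10000 bases. Counted by gene, 196 of 2175 lncRNA genes with a start in the class (9.01%) had a summit within 1 kb of it. The share was 8.31% of 2107 genes with predicted or clone names and 21 of 68 (30.9%) genes with other names. Transcription of these genes was not analysed here.

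Transfer RNA genes made up a small part of the class and stood out in density. Within 1 kb of a tRNA gene lay 75 summits (2.59%, 2.04 to 3.24), against 0.0578% of class bases. Of these, 17 lay inside a tRNA gene, 66 lay within 250 bases, and the median distance was 67 bases. Density was 1281 per Mb within 100 bases, 489 from 100 to 250 bases and 76.2 from 250 to 500 bases. Among summits of other distance classes the share was 0.960% (0.772 to 1.18) from 1 to 10 kb, 0.374% within 1 kb and 0.109% in intergenic sequence over 50 kb away.

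Of the 403 tRNA genes on the autosomes and X, 137 (34.0%) lay in the class, and 89 of these (65.0%, 56.4 to 72.9) had a summit within 1 kb, against 144 of 266 (54.1%) located elsewhere. By comparison, this was so of 16.6% of lncRNA genes, 8.85% of microRNA genes, 5.13% of small nuclear RNA genes, 1.60% of small nucleolar RNA genes, 3.20% of transcribed pseudogenes and 1.49% of other pseudogenes whose ends both lay in the class. Located elsewhere, the shares were 28.8% of lncRNA, 14.7% of microRNA, 6.24% of small nuclear RNA and 8.49% of small nucleolar RNA genes. For transcribed and other pseudogenes elsewhere they were 16.4% and 2.54%. Among these types only tRNA genes had a higher share in the class than elsewhere. The tRNA genes beside the histone genes of chromosome 13, between 21160785 and 23519684, had a summit in 50 of 62 cases (80.6%), and those of other chromosomes in 39 of 75 (52.0%). Of all 167 summits of the class on chromosome 13, 39 (23.4%) lay within 1 kb of a tRNA gene, and without them its density was 6.48 in place of 8.45 per Mb. By amino acid, all 7 proline tRNA genes and 8 of 9 valine tRNA genes had a summit. None of the 7 cysteine tRNA genes did, and all 7 lay in 1 cluster on chromosome 6 between 47978997 and 48363603. Copies of a tRNA gene are close to identical in sequence, and the sources used here do not give how the authors placed reads with several matches, so a summit cannot be assigned with certainty to 1 copy.

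**Figure D3:**
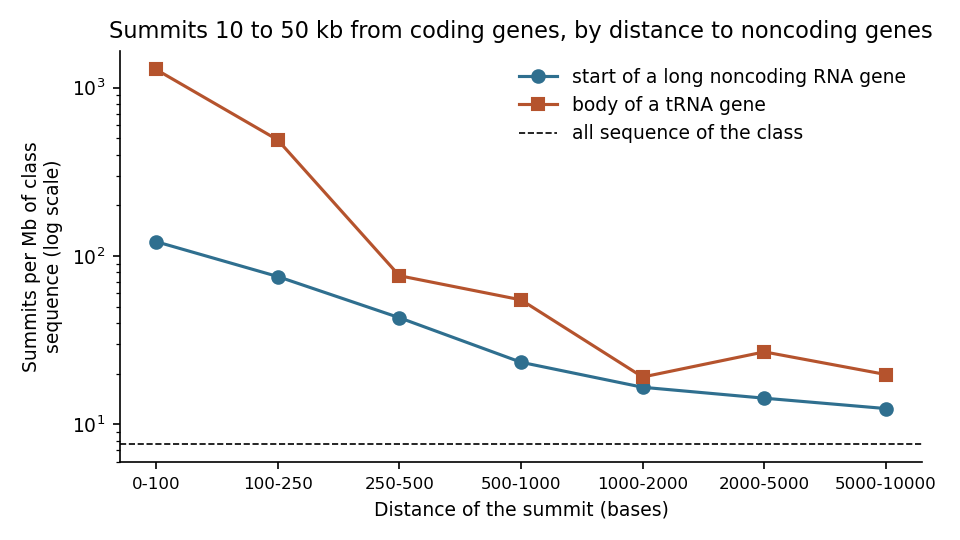
Summits of the class per Mb of class sequence (log scale) in rings at increasing distance in bases from lncRNA gene starts (blue circles) and tRNA genes (orange squares). Density falls from 1281 per Mb within 100 bases of tRNA genes and 121 per Mb within 100 bases of lncRNA starts towards the dashed line, 7.67 per Mb for all sequence of the class.

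MicroRNA genes were few, with a summit within 1 kb of 10 of the 113 in the class (8.85%). RefSeq gave 15 mature sequences for 9 of them, no pair of which had the same seed (bases 2 to 8). The sequences below belong to the microRNAs with the best-known arms, to the gene beside Sox2, and to the gene that overlaps a tRNA gene, with the seed in capitals:
mmu-miR-9-5p (chr7:79505279-79505301, plus strand): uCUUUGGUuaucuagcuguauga
mmu-miR-9-3p (chr7:79505318-79505339, plus strand): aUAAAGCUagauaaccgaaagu
mmu-miR-7b-5p (chr17:56243017-56243040, plus strand): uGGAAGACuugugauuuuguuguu
mmu-miR-193a-3p (chr11:79712009-79712030, plus strand): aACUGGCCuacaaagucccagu
mmu-miR-1897-3p (chr3:34638511-34638532, plus strand): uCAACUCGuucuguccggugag
mmu-miR-1983 (chr13:21896930-21896950, minus strand): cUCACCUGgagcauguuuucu
The summit lay 376 bases from Mir9-3, a microRNA of neural development, and 36977 bases from Polg, its nearest protein-coding gene. Gm51285, which RefSeq places on the opposite strand of Mir9-3, shares that summit. Mir7b had a summit at 798 bases, Mir193a at 884 bases and Mir1897 at 840 bases, the last being the summit 10613 bases from Sox2. The summit at Mir1983 lay inside that gene and inside the tRNA gene n-TItat14, so these genes cannot be told apart. Mir6236 also held a summit, and Mir7229, Mir6516 and Mir187 had one at 68, 500 and 348 bases.

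Summits of the class gathered in runs, here sets of summits in 1 gap whose neighbours lie within 12500 bases. Of the 2893, 1636 (56.6%) stood alone, 309 runs were pairs, and 169 runs of 3 or more held 639 summits (22.1%, 20.6 to 23.6) over a median length of 9069 bases. There were 33 runs of 5 or more. The median distance to the next summit of any class was 11636 bases, against 4136 for intergenic summits 1 to 10 kb from a gene and 45361 for those over 50 kb away.

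The largest run held 12 summits within 23212 bases on chromosome 19, from 5794952 to 5818163. It covered Malat1, whose promoter window is printed above, with 5 summits in the gene, and continued past its start. A run of 8 lay between Tex44 and Ptma on chromosome 1, and 2 of its summits were inside Gm41907. Another run of 8 lay between H4bc24 and Zfp184 on chromosome 13, and every summit of it was within 1 kb of a tRNA gene. The runs of 7 lay between Tha1 and Socs3 on chromosome 11, with no annotated gene under any summit, and between Srsf3 and Cdkn1a on chromosome 17, where 6 of 7 were inside Gm41556 or Trp53cor1. Cdkn1a encodes a cell cycle inhibitor and Srsf3 a splicing factor.

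The remaining runs among the largest 10 held 6 summits each. The most compact was that between Nrf1 and Ube2h on chromosome 6, with 6 summits within 4075 bases, 3 of them inside Mirc35hg or BB283400. A run between BC107364 and Hjv on chromosome 3 spanned 4314 bases, with every summit within 1 kb of a tRNA gene. The others lay between Mreg and Pecr on chromosome 1 (18529 bases), Ahdc1 and Wasf2 on chromosome 4 (24176 bases), and Mgat5b and Sec14l1 on chromosome 11 (19448 bases), the last with 1 summit inside Snhg20. The 10 largest runs did not sort into separate kinds. Apart from runs at tRNA genes, those that touched a lncRNA had from 1 of 6 to 6 of 7 summits inside one. The run between H4bc24 and Zfp184, at tRNA genes, also had 1 summit inside a lncRNA. The runs beside Socs3 and between Ahdc1 and Wasf2 had no summit inside a lncRNA or within 1 kb of a tRNA gene.

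**Figure D4:**
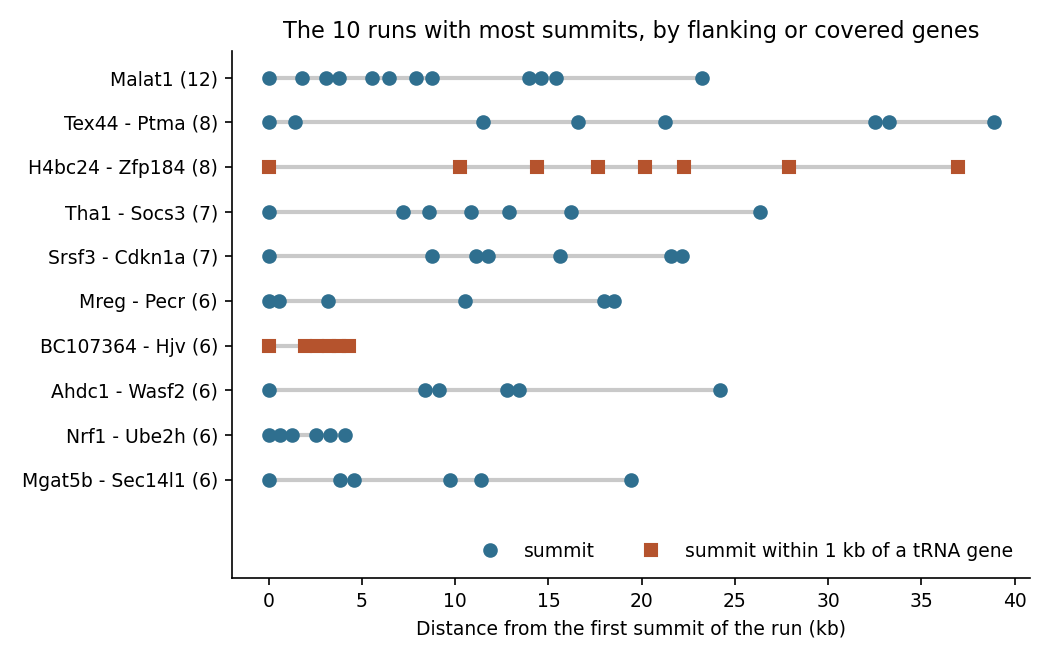
The 10 runs with most summits, each on a line named by its flanking protein-coding genes (the first by Malat1, which it covers) with its number of summits, drawn by distance in kb from its first summit. Circles are summits and orange squares are summits within 1 kb of a tRNA gene; all 8 in the H4bc24 to Zfp184 run and all 6 in the BC107364 to Hjv run are squares, and the Nrf1 to Ube2h run fits within 4075 bases.

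Chromosome X held few of these summits. There were 29 in 32.6 Mb of class sequence, or 0.891 per Mb, against 8.31 per Mb on the autosomes, a ratio of 0.107. Counted per gap the ratio was 0.139, and for summits of every class it was 0.148. The class made up 8.63% of the summits on X and 8.79% of those on the autosomes, so the low density was not limited to this distance from genes. The 29 summits were nearest to 23 genes, of which Bcor, a repressor gene, and Usp9x, a deubiquitinase gene, had 3 each and Ccdc160 and Mid1 had 2 each. The labels do not state the sex of the cells.

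Among autosomes, chromosome 11 had 16.7 per Mb (258 summits), followed by chromosome 19 with 11.9, chromosome 17 with 10.5 and chromosome 15 with 10.3. The lowest was chromosome 7 with 5.63 per Mb. Chromosome 11 was also first over all summits, with 24.5 per Mb of its span, and the class made up 8.88% of its summits, against 6.43% on chromosome 7.

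**Figure D5:**
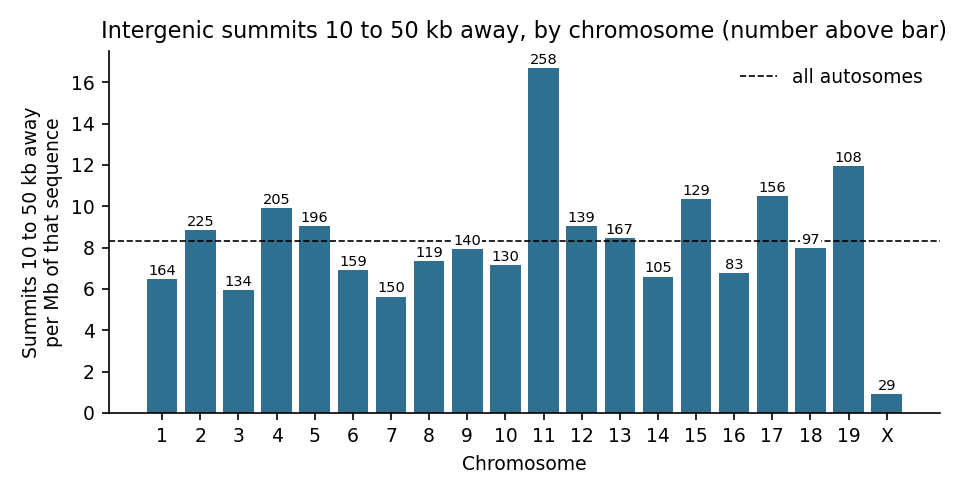
Summits of the class per Mb of class sequence (y axis) for each chromosome (x axis), with the number of summits above each bar and a dashed line at 8.31 per Mb for all autosomes. Chromosome 11 stands highest at 16.7 per Mb and X lowest at 0.891 per Mb.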

How the data were processed

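The deposited file holds the positions, in bases on mm10, of 32927 summits of 1 base each that the authors called on V5 ChIP libraries. Per the submitters' processing notes the tools, named with no role or setting, were cutadapt 1.9.1, Trim Galore 0.4.1, Bowtie 1.1.2, SAMtools 1.3, Picard 2.1.0, bedtools, HOMER 4.9.1 and MACS2 2.1.1.20160309. The libraries joined, the threshold and the treatment of reads with several matches are not given in the sources used here.

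Summits were set against RefSeq genes (GRCm38.p6), 21521 of them protein-coding, without 345 records on scaffolds. Densities divide counts by the exact bases of each kind. Intervals are exact at 95% (Clopper-Pearson for shares, Poisson for densities). No genome was used, so sequence came from RefSeq promoter windows and microRNAs alone, and the planned motif windows around all summits were replaced by these. Distances and counts were tested on simulated data.

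Members and the 13 gene lists were chosen with earlier results of these data known, so the lists are not independent evidence. Gcna and Sry were not matched. Genes were named by rule: the 15 nearest to most summits, 3 per list, flanks of the 10 largest runs, 27 fixed genes, the summits beside each limit, and the 10 noncoding genes with most. Some results the rule covers are not reported here. Any other gene was chosen after its values were seen. Alternatives were other limits, gene sets, stitching and merging. The scripts ran under Python 3.11.15 with SciPy 1.17.1, pandas 2.3.3, numpy 2.4.6 and matplotlib 3.10.9.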

Additional observations from a re-analysis of the deposited data

How the results depend on the processing

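Of 87 alternative values, 63 stayed within the interval of the value reported (for the count of genes, within 1.5 times) and 24 did not, and most of the latter redefine the class. Of the 87, 56 were shares of list genes or of all protein-coding genes, and 5 of these did not stay. Most of the 56 were judged against the wide intervals of short lists. The other 19 that did not stay belonged to the main results, which thus changed more often. The share of summits in the class (8.79%) became 5.86% when all annotated genes set the distances, 9.24% without predicted genes, 12.3% from 5 to 50 kb, 11.3% from 10 to 100 kb, 4.94% from 20 to 50 kb and 9.80% with summits within 1 kb merged. Its density (7.67 per Mb) became 3.79, 8.36, 8.46, 6.44, 6.92 and 7.22 under the same changes, and 8.31 on the autosomes alone. Genes nearest to a summit numbered 1159 in place of 1952 from 20 to 50 kb. The share beside a gene with a boundary summit (69.9%) was 62.1% with 500 bases for a boundary and 79.8% with 5 kb. The share at noncoding genes was 31.4% within 1 kb in place of 24.2% inside them, and that in runs was 12.7% with stitching at 5 kb and 29.4% at 25 kb, in place of 22.1%. Among the lists, TGF-beta, WNT and Notch had 18.6% from 20 to 50 kb, where all protein-coding genes had 5.39%, and immediate early genes had 54.8% with both flanking genes, where all had 11.7%. Keeping scaffold records, chosen after seeing the data, left all 2893 summits in the class. Motif windows of 100 bases were not run, as they need a genome. No paired analysis was possible because the groups hold 1 library apiece and the summits name none. Depth is unknown, so where no summit lies, binding may still have been present under the calling threshold.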

Other observations

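Outside the autosomes and X, the list held 10 summits on the Y chromosome and 5 on the mitochondrial genome. Of the Y summits 1, at 90767954, met the same distance rule, 22871 bases from Gm52481, and was left out because the rule covers the autosomes and X.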
